A study of Mus musculus with 20 samples.

Results

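Transcripts of 10 neutrophil granule genes were followed in RNA from marrow stroma of mice, sorted as CAR and PaS cells from animals with and without targeting of Ebf1. The genes were chosen by symbol, as Mpo, Elane, Prtn3, Ctsg, Ltf, Camp, Ngp, Lcn2, S100a8 and S100a9. All 10 were found in each of the 12 RNA libraries, among 24347 gene symbols. Of these 10, 4 are early (azurophil) granule genes and 6 are late genes. CAR cells (CXCL12-abundant reticular cells) had been sorted from digested femora and tibiae as CD45-, CD31-, Lin- and PDGFRα+ cells without Sca1, and PaS cells by the same markers but with Sca1. Both genotypes were on C57BL/6 and carried 1 Prx1-cre allele: ko animals were Ebf1fl/fl;Prx1+/cre, and wt animals were Ebf1+/+;Prx1+/cre. The groups were CAR ko, CAR wt, PaS ko and PaS wt, with 3 libraries each. The labels used here give no age, and do not say whether a library is 1 animal or a pool. Prx1-cre is known to be active in limb mesenchyme and its descendants rather than in blood cells.

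Neutrophils make their granules in sequence. Myeloblasts and promyelocytes transcribe the azurophil genes, whose products include myeloperoxidase and the serine proteases. Myelocytes and metamyelocytes then switch to the specific granule genes, and the calprotectin genes S100a8 and S100a9 are transcribed through late maturation. The early genes therefore mark myeloblasts and promyelocytes, and the late genes mark later stages of the lineage. Lcn2 and S100a8 can also be induced in cells other than neutrophils.

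The libraries carried the markers of their sort. Pdgfra averaged 64.9 ± 3.90 FPKM in CAR ko, 57.9 ± 2.77 in CAR wt, 111 ± 4.57 in PaS ko and 142 ± 6.64 in PaS wt libraries (SD, n = 3 each). FPKM count fragments relative to transcript length and to the library's fragments, so levels of different genes are per length. Ly6a, which encodes Sca1, averaged 8.82 ± 3.01 FPKM in CAR ko and 4.66 ± 0.815 in CAR wt libraries, against 1551 ± 34.6 in PaS ko and 1963 ± 218 in PaS wt libraries. Ptprc, which encodes the CD45 antigen gated out in the sort, was above 0 in every library and averaged 2.50 ± 0.600 FPKM in CAR ko, 6.46 ± 1.36 in CAR wt, 8.54 ± 0.199 in PaS ko and 11.8 ± 2.66 in PaS wt libraries. Ebf1 itself was not lower in libraries labelled ko, with 57.5 ± 1.99 FPKM in CAR ko and 48.1 ± 1.10 in CAR wt, and 62.5 ± 2.18 in PaS ko and 55.9 ± 5.89 in PaS wt. This value covers the whole gene, undeleted exons included, and does not check the genotype. Library totals ran from 491801 to 526074 FPKM, and depth in reads is unknown. Replicate 1 of PaS wt had 24.6% of its genes listed at 0, where the remaining 11 libraries had 33.3% to 37.0%.

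The promoters of the 4 genes with the deepest falls are shown, because members of each class moved together across the groups. Elane and Mpo had the largest decreases of the 10 in CAR ko libraries, and Lcn2 and Ltf the largest in PaS ko libraries. All 10 members matched a RefSeq window of GRCm38.p6, the assembly also called mm10, of 250 bases before and 50 bases after the gene start. Each sequence below is the 250 bases upstream, read 5′ to 3′ on the gene's strand. Capitals mark matches to 2 motifs searched on both strands, TTGCNNAA with its reverse complement TTNNGCAA (C/EBP-like) and GAGGAA (PU.1-like). C/EBP factors and PU.1 act as transcription factors of the granulocyte lineage.
Elane: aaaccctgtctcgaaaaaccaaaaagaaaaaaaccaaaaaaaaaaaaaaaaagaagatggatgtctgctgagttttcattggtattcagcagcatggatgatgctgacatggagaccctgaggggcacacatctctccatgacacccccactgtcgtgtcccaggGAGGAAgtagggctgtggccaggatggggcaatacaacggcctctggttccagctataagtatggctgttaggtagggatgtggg
Mpo: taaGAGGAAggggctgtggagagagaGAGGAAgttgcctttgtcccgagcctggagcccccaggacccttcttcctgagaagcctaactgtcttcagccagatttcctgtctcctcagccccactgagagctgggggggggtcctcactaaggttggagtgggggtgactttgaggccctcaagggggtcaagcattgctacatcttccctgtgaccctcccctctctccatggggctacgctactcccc
Lcn2: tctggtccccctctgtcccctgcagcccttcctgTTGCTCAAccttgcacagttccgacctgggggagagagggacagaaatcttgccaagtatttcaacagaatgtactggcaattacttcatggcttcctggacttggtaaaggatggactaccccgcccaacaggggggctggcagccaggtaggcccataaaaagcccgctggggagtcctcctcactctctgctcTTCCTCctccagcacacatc
Ltf: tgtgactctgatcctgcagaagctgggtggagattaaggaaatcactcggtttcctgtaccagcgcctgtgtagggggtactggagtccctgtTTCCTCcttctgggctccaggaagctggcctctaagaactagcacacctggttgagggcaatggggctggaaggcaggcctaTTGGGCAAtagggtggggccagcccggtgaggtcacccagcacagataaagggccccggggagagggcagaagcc
The Elane stretch lies on the plus strand at chr10:79886062-79886311, and the Mpo stretch on the plus strand at chr11:87793534-87793783. Lcn2 is on the minus strand, with its stretch at chr2:32387740-32387989, and Ltf on the plus strand, with its stretch at chr9:111019042-111019291. Over the whole 300-base windows, the C/EBP-like motif was found in 0 of 4 early and 4 of 6 late genes (Ltf, Ngp, Lcn2 and S100a9), and in 10.8% of 32851 promoter windows. GAGGAA was found in 4 of 4 early and 3 of 6 late genes (Ltf, Lcn2 and S100a8), and in 28.3% of all windows. No C/EBP-like match overlapped a PU.1-like match in these members. ACCACA (RUNX-like) was in 3 of the 10 members and 16.8% of all windows, and CCCNNGGG (EBF-like) was in 2 members, Prtn3 and Ltf, and in 13.7% of all windows. These matches are letters in a window and not measured binding.

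Among the early genes, Mpo encodes myeloperoxidase, which makes hypochlorous acid, and lies on chromosome 11 (87793784 to 87804412). Mpo had 177, 142 and 152 FPKM in the CAR ko libraries, against 586, 473 and 448 FPKM in the CAR wt libraries. In the other gate Mpo had 119.8, 94.8 and 99.9 FPKM in PaS ko, against 137, 163 and 149 FPKM in PaS wt libraries. The CAR wt libraries stood above all others, the CAR ko and PaS wt libraries overlapped, and the PaS ko libraries were lowest. The Mpo locus overlaps the annotated gene Gm34064, and use of strand in counting is not stated, so reads of the pair cannot be told apart.

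Elane encodes neutrophil elastase and Prtn3 encodes proteinase 3, serine proteases whose genes lie 3138 bases apart on chromosome 10 (Prtn3 at 79879667 to 79883174, Elane at 79886312 to 79888216). Elane had 155, 140.5 and 164 FPKM in CAR ko, against 560.0, 457 and 432 FPKM in CAR wt libraries. For PaS cells the Elane values were 89.5, 81.6 and 78.1 FPKM in ko and 170.3, 157 and 161 FPKM in wt libraries. CAR wt libraries were again highest and PaS ko libraries lowest, with CAR ko and PaS wt libraries overlapping between them. Prtn3 had 47.8, 48.1 and 56.1 FPKM in CAR ko, against 165, 123 and 119 FPKM in CAR wt libraries. Its PaS values were 37.7, 31.3 and 29.2 FPKM in ko and 54.3, 42.9 and 56.9 FPKM in wt libraries. Prtn3 followed the order of its neighbour, and CAR ko and PaS wt libraries overlapped here too.

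Ctsg encodes cathepsin G, another serine protease of azurophil granules, on chromosome 14 (56099885 to 56102574), and had the lowest mean of the 10 genes in every group. It had 29.4, 31.7 and 31.1 FPKM in CAR ko, against 111, 72.5 and 84.4 FPKM in CAR wt libraries. Both PaS genotypes were low for Ctsg, with 20.2, 17.6 and 16.3 FPKM in ko and 22.3, 18.7 and 21.8 FPKM in wt libraries, and these overlapped, with all CAR ko libraries above them. Replicate 1 of CAR wt was the highest library for each of the 4 early genes.

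Among the late genes, Ltf encodes lactoferrin, an iron-binding protein of specific granules, on chromosome 9 (111019292 to 111042766). Ltf had 72.1, 61.3 and 50.5 FPKM in CAR ko, against 100.4, 122 and 107 FPKM in CAR wt libraries. Its PaS values were 81.9, 92.0 and 90.8 FPKM in ko and 331, 340.2 and 334 FPKM in wt libraries. The PaS wt libraries were the highest, followed by CAR wt, PaS ko and CAR ko, and no neighbouring groups in that order overlapped. The same order without overlap of neighbours held for each of the 6 late genes. How many of all tested genes keep 4 groups apart in this way was not counted, so nothing is read from that number.

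Camp encodes the cathelicidin antimicrobial peptide (chromosome 9, 109847377 to 109849456) and Ngp a cystatin-related neutrophilic granule protein (chromosome 9, 110419808 to 110423012). Camp had 188, 207 and 188 FPKM in CAR ko, against 512, 525 and 462 FPKM in CAR wt libraries. Camp in PaS cells had 334, 341 and 327 FPKM in ko, against 1332, 948 and 1267 FPKM in wt libraries, of which replicate 2 was the lowest. Even that PaS wt library was above every CAR wt library. Ngp had 397, 334 and 340.4 FPKM in CAR ko, against 677, 778 and 683 FPKM in CAR wt libraries. Among the specific granule members Ltf, Camp, Ngp and Lcn2, Ngp was the most abundant. Its PaS libraries had 544, 658 and 559 FPKM in ko, against 1914, 2047 and 2009 FPKM in wt. The 3 PaS wt libraries of Ngp stood apart at the top and the CAR ko libraries at the bottom. Lcn2, which encodes a lipocalin that binds bacterial siderophores (chromosome 2, 32384637 to 32387739), had 95.4, 112 and 96.7 FPKM in CAR ko, against 191, 219 and 176 FPKM in CAR wt libraries. Lcn2 values in PaS cells were 142, 172 and 144 FPKM in ko and 566, 567 and 611 FPKM in wt libraries, which were well separated.

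S100a8 and S100a9 encode the subunits of calprotectin, a calcium- and zinc-binding complex of the neutrophil cytosol, and lie 22596 bases apart on chromosome 3 (90669071 to 90670034 and 90692630 to 90695721). S100a8, the most abundant of the 10 genes in every library, had 2548, 2333 and 2191 FPKM in CAR ko, against 5763, 5682 and 4826 FPKM in CAR wt libraries. S100a8 in PaS cells had 3521, 3283 and 3556 FPKM in ko, against 12319.7, 10919 and 12795 FPKM in wt libraries. The PaS wt libraries of S100a8 were the highest and the CAR ko libraries the lowest, with no overlap. S100a9 had 1442, 1366 and 1283 FPKM in CAR ko, against 3013, 3115 and 2773 FPKM in CAR wt libraries. The S100a9 values of PaS cells were 1966, 2019.9 and 2059.8 FPKM in ko and 6917, 6611 and 7144 FPKM in wt libraries. S100a9 ranked the groups as S100a8 did. The ratio of S100a8 to S100a9 was 1.73 ± 0.0336 in CAR ko, 1.83 ± 0.0861 in CAR wt, 1.71 ± 0.0838 in PaS ko and 1.74 ± 0.0777 in PaS wt libraries (SD, n = 3 each). Together the pair held 77.1 ± 0.662% of the summed FPKM of the 10 genes in CAR ko, 75.5 ± 0.525% in CAR wt, 79.6 ± 1.35% in PaS ko and 80.8 ± 0.437% in PaS wt libraries.

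**Figure D1:**
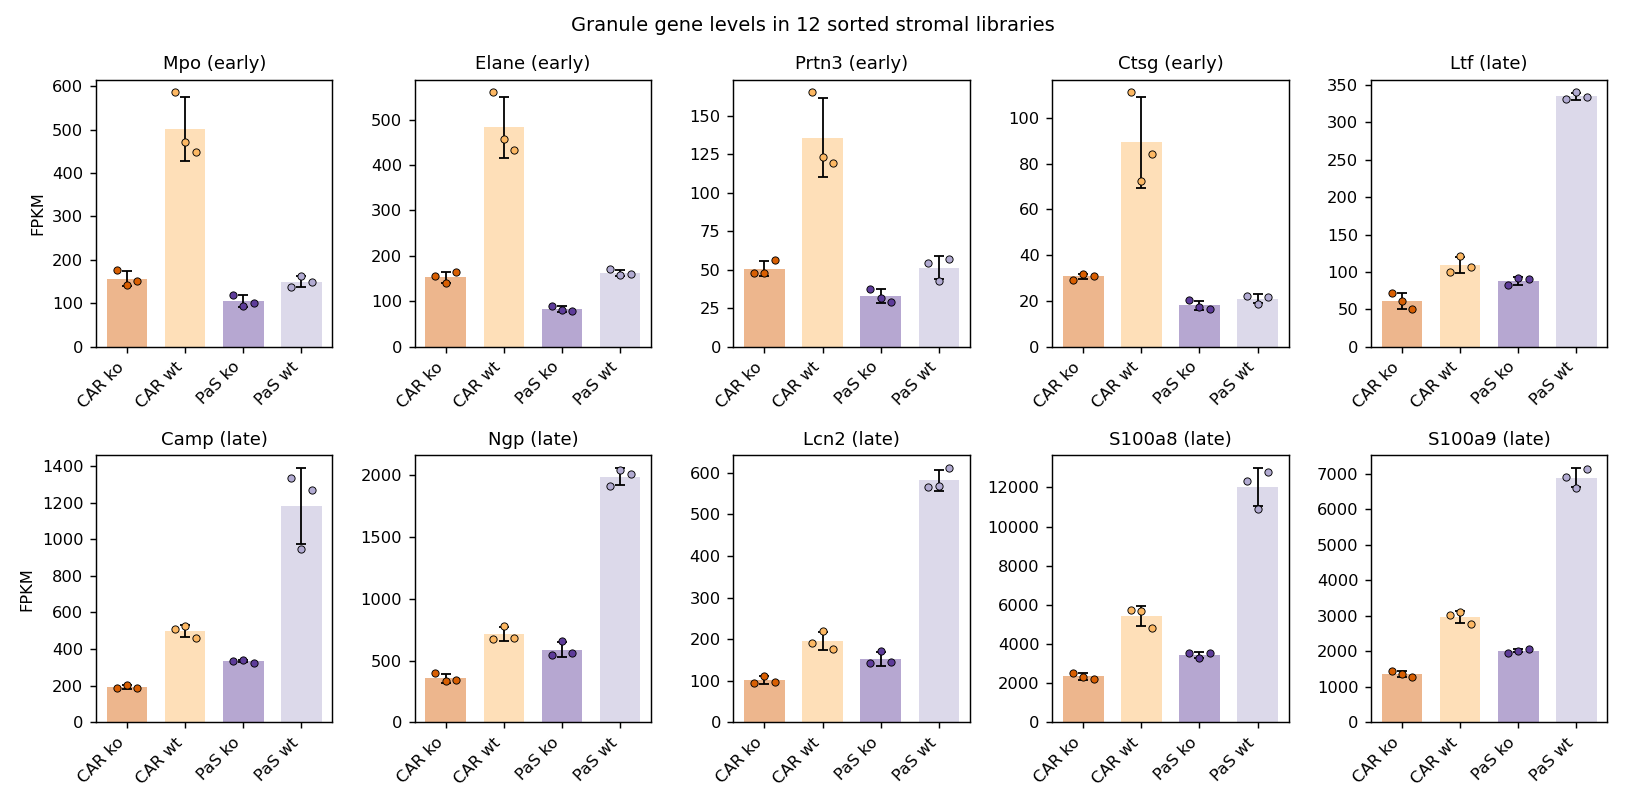
FPKM of the 10 granule genes (1 panel each, linear axes from 0) in CAR ko, CAR wt, PaS ko and PaS wt libraries, with bars for means, points for the 3 libraries and error bars for SD. The 4 early genes peak in CAR wt, where Mpo reaches 586 FPKM, and the 6 late genes peak in PaS wt, where S100a8 reaches 12795 FPKM.

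As a sum, the 10 genes made up 0.933 ± 0.0677% of all FPKM in CAR ko, 2.19 ± 0.192% in CAR wt, 1.38 ± 0.0203% in PaS ko and 4.57 ± 0.122% in PaS wt libraries (SD, n = 3 each). No member came near the filter of 1 FPKM: the lowest single value was 16.3 FPKM, for Ctsg in a PaS ko library, and all 10 were tested. The highest library exceeded the lowest by 5.57-fold for S100a9 to 7.17-fold for Elane.

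The first comparison asks whether granule transcripts differ between genotypes in CAR cells. All 10 members were lower in CAR ko than in CAR wt libraries, by limma on log2(FPKM + 1) at an adjusted p under 0.05 over 12938 genes, and 5.74% of all tested genes were called lower. Every CAR ko library was below every CAR wt library for 10 of 10 members, against 14.0% of all tested genes. The early genes had a median log2 fold change of -1.57 and the late genes one of -1.06, beside 0.01 over all tested genes. Mpo fell the most, and its mean was 3.2-fold lower in CAR ko (log2 fold change -1.67, SE 0.11, adjusted p = 1.4e-07). Elane was 3.16-fold lower (log2 fold change -1.65, SE 0.09, adjusted p = 2.8e-08). Ctsg changed by -1.49 (SE 0.13, adjusted p = 1.7e-06) and Prtn3 by -1.39 on the log2 scale (SE 0.13, adjusted p = 4.5e-06). Camp showed the deepest fall of the late genes, 2.57-fold lower (log2 fold change -1.36, SE 0.10, adjusted p = 3e-07). S100a8 and S100a9 had log2 fold changes of -1.20 (SE 0.08, adjusted p = 1.3e-07) and -1.12 (SE 0.06, adjusted p = 2.6e-08). Ngp and Lcn2 changed by -1.0 (SE 0.08, adjusted p = 1.1e-06) and -0.94 (SE 0.09, adjusted p = 5.6e-06) on the log2 scale. Ltf moved the least of the 10, 1.79-fold lower (log2 fold change -0.84, SE 0.10, adjusted p = 6.4e-05). In bulk RNA, fewer neutrophil-lineage cells and less granule RNA per cell cannot be told apart. P-values here measure only the spread between these libraries, which may be technical.

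The second comparison puts the same question to PaS cells. There 9 of 10 members were lower in PaS ko than in PaS wt libraries, beside 4.03% of all tested genes called lower, and the same 9 had no overlap between genotypes, beside 11.9% of all tested genes. The median log2 fold change was -0.57 for the early genes and -1.80 for the late genes, beside 0.00 over all tested genes. Lcn2 had the largest decrease, 3.81-fold lower (log2 fold change -1.93, SE 0.09, adjusted p = 2.7e-09). Ltf was 3.8-fold lower (log2 fold change -1.92, SE 0.10, adjusted p = 1.4e-08), and Camp 3.54-fold lower (log2 fold change -1.81, SE 0.10, adjusted p = 1.4e-08). S100a8, S100a9 and Ngp had log2 fold changes of -1.80, -1.77 and -1.76, so that the 6 late genes lay within -1.93 to -1.76. Elane was the early gene with the deepest fall, 1.96-fold lower (log2 fold change -0.96, SE 0.09, adjusted p = 3.7e-06). Prtn3 fell by less (log2 fold change -0.63, SE 0.13, adjusted p = 0.0067), and so did Mpo (log2 fold change -0.51, SE 0.11, adjusted p = 0.0087). With no filter on low genes, Prtn3 and Mpo no longer passed the threshold (adjusted p = 0.086 and 0.097). Ctsg did not pass: its log2 fold change was -0.21 with a 95% interval of -0.48 to 0.07 (adjusted p = 0.43).

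**Figure D2:**
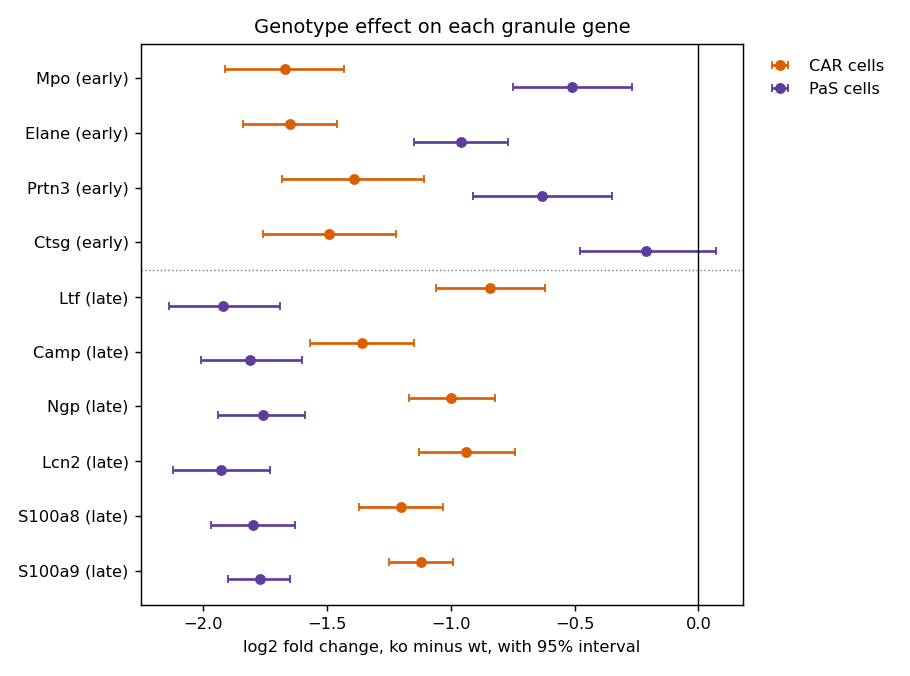
Log2 fold change, ko minus wt, of each granule gene in CAR cells (orange) and PaS cells (purple), with 95% intervals of the limma fit on 3 libraries a group. CAR effects lie left of PaS effects for the 4 early genes and right of them for the 6 late genes, and the PaS interval of Ctsg (-0.48 to 0.07) crosses 0.

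The genotype effect itself was then compared between the gates, as the CAR effect minus the PaS effect. Early and late genes moved in opposite directions in this test. All 4 early genes had a more negative effect in CAR cells, beside 3.26% of all tested genes called lower, and 5 of 6 late genes a more negative effect in PaS cells, beside 3.32% called higher. The median difference was -0.96 for the early genes and 0.71 for the late genes on the log2 scale, beside 0.02 over all tested genes. Ctsg and Mpo differed the most among early genes, by -1.28 (SE 0.18, adjusted p = 0.00047) and -1.15 (SE 0.16, adjusted p = 0.00036). Elane differed by -0.68 (SE 0.13, adjusted p = 0.0036) and Prtn3 by -0.76 (SE 0.19, adjusted p = 0.023). The call of Prtn3 is the least firm of these: its adjusted p was 0.16 with no filter, 0.054 without CAR ko replicate 1, 0.055 without CAR ko replicate 2, 0.054 without CAR wt replicate 1, 0.059 without PaS ko replicate 1 and 0.053 without PaS wt replicate 2. Ltf and Lcn2 differed the most among late genes, by 1.08 (SE 0.15, adjusted p = 0.00034) and 0.99 (SE 0.13, adjusted p = 0.00022). Ngp, S100a9 and S100a8 followed with 0.77, 0.65 and 0.60 (adjusted p = 0.00083, 0.00022 and 0.0044). S100a8 did not pass with no filter (adjusted p = 0.28) or under quantile normalization (0.48, adjusted p = 0.070). Camp did not pass, with 0.45 and a 95% interval of 0.15 to 0.75 (adjusted p = 0.071). Without PaS wt replicate 2, the lowest Camp library of its group, the Camp difference was 0.60 (adjusted p = 0.001), and with libraries weighted by quality it was 0.52 (adjusted p = 0.016).

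The gates were also compared directly within each genotype. In wt libraries the 4 early genes were higher and the 6 late genes lower in CAR than in PaS cells, beside 20.5% of all tested genes called higher and 22.7% called lower. Ctsg had the largest early difference, 4.27-fold higher in CAR wt (log2 fold change 2.02, SE 0.13, adjusted p = 2.8e-09), and Mpo was 3.36-fold higher (log2 fold change 1.73, SE 0.11, adjusted p = 3.4e-09). Elane and Prtn3 were 2.97-fold and 2.64-fold higher (log2 fold changes 1.56 and 1.38, adjusted p = 8.2e-10 and 4.2e-07). Ltf was 3.06-fold lower in CAR wt (log2 fold change -1.61, SE 0.10, adjusted p = 3.3e-09), and S100a8, at the other end of the late genes, 2.21-fold lower (log2 fold change -1.15, SE 0.08, adjusted p = 8.9e-09). In ko libraries each gene kept its direction and passed the test, beside 17.0% of all tested genes called higher and 19.8% called lower. The early genes were higher in CAR ko than in PaS ko by 0.58 (Mpo) to 0.87 (Elane) and the late genes ran from -0.78 (Camp) to -0.53 (Ltf) on the log2 scale. The median early difference between gates was 0.68 in ko and 1.64 in wt libraries, and the median late difference was -0.57 in ko and -1.36 in wt libraries. A list of 12 other azurophil and promyelocyte genes did not share the direction of the 4 early genes. In wt libraries 5 of the 12 were higher and 4 lower in CAR than in PaS cells (median 0.10). In ko libraries 1 was higher and 6 were lower (median -0.31).

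**Figure D3:**
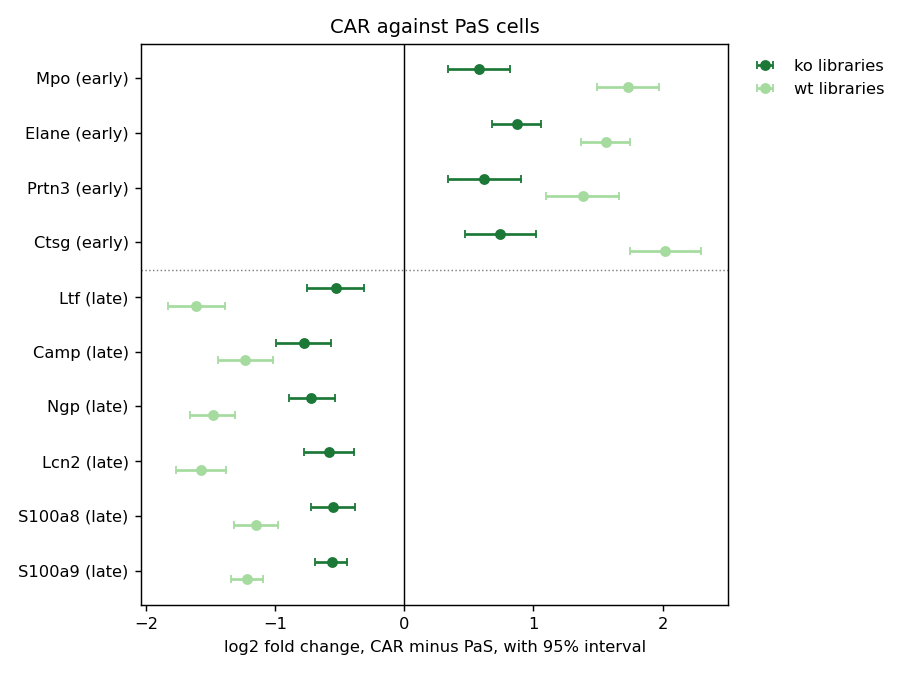
Log2 fold change, CAR minus PaS, of each granule gene in ko and in wt libraries, with 95% intervals of the limma fit. The early genes lie right of 0 and the late genes left of it in both genotypes, and the values lie nearer to 0 in ko libraries.

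The balance of early to late transcripts was described per library as the mean log2(FPKM + 1) of the 4 early genes minus that of the 6 late genes, with no test because the genes were chosen. It was -2.08 ± 0.14 in CAR ko, -1.60 ± 0.27 in CAR wt, -3.40 ± 0.19 in PaS ko and -4.65 ± 0.01 in PaS wt libraries (SD, n = 3 each). Both PaS groups were thus more heavily weighted to late transcripts than both CAR groups, with PaS wt at the far end. As a share of the summed FPKM of the 10 genes, the early genes held 8.12 ± 0.648% in CAR ko, 10.9 ± 1.23% in CAR wt, 3.47 ± 0.369% in PaS ko and 1.65 ± 0.0863% in PaS wt libraries. Single pairs of genes gave the same order of groups. Mpo over Ltf was 2.60 ± 0.366 in CAR ko, 4.63 ± 1.05 in CAR wt, 1.20 ± 0.232 in PaS ko and 0.446 ± 0.0323 in PaS wt libraries. Elane over Ngp was 0.430 ± 0.0459 in CAR ko, 0.683 ± 0.127 in CAR wt, 0.143 ± 0.0204 in PaS ko and 0.0819 ± 0.00638 in PaS wt libraries. The ko libraries of the 2 gates lay closer together on each of these measures than the wt libraries did.

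**Figure D4:**
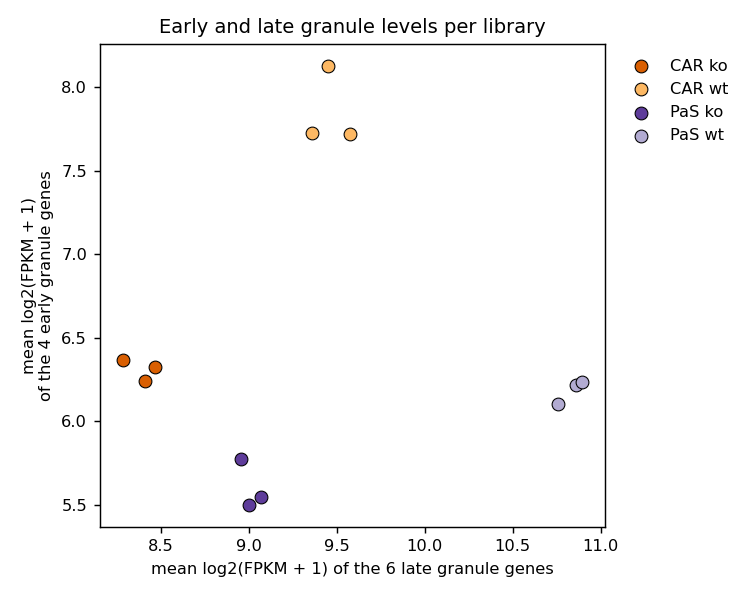
Mean log2(FPKM + 1) of the 6 late genes (x axis) and of the 4 early genes (y axis), with 1 point per library, 3 each of CAR ko, CAR wt, PaS ko and PaS wt. The CAR wt libraries lie highest on the early axis and the PaS wt libraries farthest out on the late axis, and each group of 3 keeps to itself.

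Members of a class tracked one another across the 12 libraries. Pearson's r on log2(FPKM + 1) was 0.944 to 0.988 for the 6 pairs of early genes, 0.963 to 0.998 for the 15 pairs of late genes and -0.214 to 0.26 for the 24 mixed pairs. These values are a description, since the libraries fall into 4 groups and share sort and preparation. Among 8523 other genes with a mean of at least 5 FPKM, those most like the early profile were Ncl, which encodes nucleolin (r = 0.965 over 12 libraries), Ifitm1 (0.957), Hmgn2 (0.956), Ccnd3, a D-type cyclin (0.955), and Nkg7 (0.954). Nkg7 averaged 16.7 ± 3.14 FPKM in CAR ko and 59.0 ± 6.74 in CAR wt, and 15.1 ± 0.528 in PaS ko and 21.3 ± 2.63 in PaS wt libraries. Cdt1, Tnfrsf1a and Mfsd2b completed the 8 nearest. Pearson's r ignores the size of a change, and some of these genes moved little. Group means ran from 28.5 to 37.7 FPKM for Ncl, 48.6 to 69.9 FPKM for Hmgn2 and 126 to 139 FPKM for Tnfrsf1a. Those most like the late profile were Chil3 (0.996), Retnlg (0.984), Mmp8, which encodes neutrophil collagenase (0.983), Cd177, a neutrophil surface protein (0.976), and the decoy receptor Il1r2 (0.975), followed by Lilrb4a, Col4a2 and Slfn4. Chil3, which encodes a chitinase-like protein of myeloid cells, averaged 33.0 ± 3.20 FPKM in CAR ko and 69.7 ± 5.99 in CAR wt, and 48.8 ± 1.68 in PaS ko and 209 ± 9.15 in PaS wt libraries.

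Genes next to the members on the chromosome did not all share their pattern. Cfd, which encodes complement factor D, starts 2637 bases after Elane and averaged 0.731 ± 0.101 FPKM in CAR ko and 1.11 ± 0.699 in CAR wt libraries, which overlapped (log2 fold change -0.23, adjusted p = 0.54). Cfd rose in PaS cells, with 32.8 ± 2.31 FPKM in ko against 2.64 ± 0.351 FPKM in wt libraries (log2 fold change 3.22, SE 0.20, adjusted p = 5.6e-08). Mcpt8, a basophil protease gene 14386 bases from Ctsg, rose in CAR ko, with 34.5 ± 6.66 FPKM against 4.53 ± 0.970 FPKM in CAR wt (log2 fold change 2.68, SE 0.18, adjusted p = 1.4e-07). Mcpt8 fell in PaS ko, to 4.50 ± 1.42 FPKM against 24.0 ± 1.08 FPKM in PaS wt (log2 fold change -2.22, SE 0.18, adjusted p = 1e-06). Ccrl2, next to Ltf, fell in CAR ko (log2 fold change -0.80, adjusted p = 0.011) and was not called in PaS ko (-0.58, adjusted p = 0.081). The other tested neighbours, Nme6, Cdc25a, Ptpn23, Klhl18, 1110008P14Rik, Ptges2 and S100a7a, were not called in either genotype comparison. Lpo, the peroxidase gene next to Mpo, was listed at 0 in all 12 libraries. Gzmb, which is not the gene adjoining Ctsg, was at no more than 0.377 FPKM in any.

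Other genes of the neutrophil lineage were counted list by list. Beside these counts, 5.74% of all tested genes fell and 6.51% rose in CAR ko, and 4.03% fell and 3.41% rose in PaS ko. Of 12 other azurophil and promyelocyte genes, 10 fell in CAR ko and none rose, with a median log2 fold change of -1.25, whereas 7 fell and 1 rose in PaS ko, with a median of -0.45. The 10 that fell in CAR ko include the lysozyme gene Lyz2 (log2 fold change -1.23, SE 0.07, adjusted p = 9.7e-08) and Nkg7 (log2 fold change -1.77, SE 0.12, adjusted p = 2.1e-07). Among the 7 in PaS ko were Lyz2 (log2 fold change -1.24, SE 0.07, adjusted p = 3.7e-08) and Fcnb, the gene of a ficolin (log2 fold change -1.62, SE 0.15, adjusted p = 3e-06), and Ctsc, which encodes the protease that activates the azurophil serine proteases, was the 1 that rose (log2 fold change 0.43, SE 0.10, adjusted p = 0.0099). Of 16 other specific, gelatinase and later neutrophil genes, 13 fell in CAR ko and 15 in PaS ko and none rose in either, with medians of -0.77 and -1.48. Chil3 (log2 fold change -2.07, SE 0.08, adjusted p = 5.3e-10), Retnlg (log2 fold change -1.72, SE 0.07, adjusted p = 1.9e-09) and Mmp8 (log2 fold change -1.58, SE 0.09, adjusted p = 3.1e-08) were among those in PaS ko, and Pglyrp1, a peptidoglycan-binding protein gene, had the lowest value in CAR ko (log2 fold change -1.35, SE 0.10, adjusted p = 3e-07). Hp, the haptoglobin gene, is on the same list at 3007 ± 97.7 FPKM in CAR ko and 3370.1 ± 96.1 in CAR wt, and 886 ± 86.8 in PaS ko and 804 ± 31.3 in PaS wt libraries. It was the 1 gene of that list that was higher in CAR wt than in PaS wt, while 15 were lower. In that comparison 20.5% of all tested genes were called higher and 22.7% lower. Between the ko libraries of the 2 gates, 1 gene of the list was higher in CAR cells and 8 were lower, beside 17.0% and 19.8% of all tested genes.

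Most surface genes of mature neutrophils, listed together with the cytokine gene Il1b, also fell in each gate. Of 11 tested, 8 fell in CAR ko and 10 in PaS ko, beside 5.74% and 4.03% of all tested genes, and none rose in either. Cxcr2, a chemokine receptor, averaged 1.22 ± 0.460 FPKM in PaS ko against 7.62 ± 2.41 FPKM in PaS wt libraries (log2 fold change -1.94, SE 0.24, adjusted p = 8.3e-05). Csf3r, the receptor of granulocyte colony-stimulating factor, averaged 2.92 ± 0.0584 FPKM in PaS ko against 8.27 ± 0.666 FPKM in PaS wt libraries (log2 fold change -1.24, SE 0.16, adjusted p = 0.00013). In CAR cells Cxcr2 was not called and its ko and wt libraries overlapped (log2 fold change -0.64, SE 0.24, adjusted p = 0.11). Csf3r passed narrowly there (log2 fold change -0.53, SE 0.16, adjusted p = 0.046). The summed level of the list ran from 49.5 to 57.3 FPKM in CAR ko and 109.8 to 118 FPKM in CAR wt libraries, and from 74.9 to 88.9 FPKM in PaS ko and 193 to 202 FPKM in PaS wt libraries, and none of the 11 was at 0 in any library. Ly6g was not analysed here. The 6 genes of the phagocyte NADPH oxidase, which supplies the peroxide that myeloperoxidase uses, gave 6 falls in CAR ko and 4 in PaS ko, with Cybb at -0.37 and -1.13 on the log2 scale (adjusted p = 0.019 and 1.6e-06).

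Transcription factors of granulopoiesis gave fewer calls, 4 of 7 lower in CAR ko and 2 of 7 in PaS ko, with none higher. Of all tested genes, 5.74% and 4.03% were called lower. Cebpb, Cebpd and Runx1 were called in neither gate, and averaged 507, 239 and 52.9 FPKM in CAR wt libraries. They were higher in CAR wt than in PaS wt libraries (log2 fold changes 0.65, 0.66 and 1.21). Whether the sorted stroma itself supplies these transcripts was not tested. Cebpe, a factor needed for specific granule genes, averaged 1.12 ± 0.651 FPKM in CAR ko against 3.09 ± 0.287 in CAR wt (log2 fold change -1.0, SE 0.22, adjusted p = 0.0075), and 1.91 ± 0.587 in PaS ko against 4.29 ± 0.454 in PaS wt (log2 fold change -0.88, SE 0.22, adjusted p = 0.022). Spi1, which encodes PU.1, fell in both gates (log2 fold changes -1.25 in CAR and -0.61 in PaS cells, adjusted p = 2.1e-05 and 0.011). Myb, a factor of dividing progenitors, fell in CAR ko (log2 fold change -1.18, SE 0.17, adjusted p = 0.00025) and averaged 6.93 ± 0.953 FPKM in PaS ko and 6.04 ± 1.84 in PaS wt libraries. Gfi1 did not reach 1 FPKM in 3 libraries, with no more than 1.07 FPKM in any library.

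Transcripts of other blood cells moved beside the granule genes. Of all tested genes, 5.74% fell in CAR ko and 4.03% in PaS ko. All 10 pan-leukocyte genes fell in CAR ko (median -1.32) and 6 of 10 in PaS ko (median -0.59). Their summed level ran from 356 to 393 FPKM in CAR ko and 767 to 822 FPKM in CAR wt libraries, and from 667 to 758 FPKM in PaS ko and 975 to 1110.2 FPKM in PaS wt libraries, none of the 10 being at 0 in any library. In wt libraries 9 of these 10 were lower in CAR than in PaS cells, beside 22.7% of all tested genes. Of the cell cycle genes, 8 of 10 fell in CAR ko and 4 of 10 rose in PaS ko, where 3.41% of all tested genes rose. All 10 cell cycle genes were higher in CAR wt than in PaS wt, beside 20.5% of all tested genes. Their sum ran from 155 to 169 FPKM in CAR ko and 232 to 252 FPKM in CAR wt libraries, and from 171 to 182 FPKM in PaS ko and 128 to 135 FPKM in PaS wt libraries. Mki67, the gene of the proliferation antigen Ki-67, averaged 3.98 ± 0.237 FPKM in CAR ko and 6.55 ± 0.661 in CAR wt, and 5.95 ± 0.509 in PaS ko and 3.58 ± 0.268 in PaS wt libraries. The part of these lists in the granule gene results was not tested.

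Lineages outside the neutrophil one did not all fall with the granule genes in PaS ko. For the counts of falls in CAR ko, the share over all tested genes was 5.74%. Of 12 monocyte and macrophage genes, 6 fell in CAR ko, whereas 7 rose and 1 fell in PaS ko, against 3.41% and 4.03% of all tested genes. Vcam1, an adhesion molecule gene that marrow stroma also expresses, was among the 7 (log2 fold change 0.29, adjusted p = 0.037); C1qa, a complement gene of macrophages, rose there (log2 fold change 1.25, SE 0.17, adjusted p = 0.00015) and Ly6c2, a gene of monocytes and neutrophils, fell (log2 fold change -1.16, SE 0.11, adjusted p = 3.4e-06). Of 11 erythroid genes, 9 fell in CAR ko and 6 rose in PaS ko, among them Car1 (log2 fold change 1.07, SE 0.07, adjusted p = 1.6e-07). All 8 tested B-lineage precursor genes fell in CAR ko, the surrogate light chain gene Igll1 the most (log2 fold change -2.16, SE 0.18, adjusted p = 1.1e-06), and 1 of 8, Cd79b, rose in PaS ko. Of 11 eosinophil and basophil genes, 3 rose and 3 fell in CAR ko and 5 fell in PaS ko. In CAR ko Prss34, Mcpt8 and Fcer1a rose (log2 fold changes 3.65, 2.68 and 1.37). Prg2, Prg3 and Ear1 fell there (log2 fold changes -3.08, -1.84 and -1.29). Of 8 megakaryocyte genes, 3 fell in CAR ko and 6 in PaS ko. Of 8 endothelial genes, 1 rose in CAR ko and 1 fell in PaS ko, beside 6.51% and 4.03% of all tested genes, and nothing is read from counts of 1. Monocyte and macrophage genes summed to 619.9 to 709 FPKM in CAR ko and 774 to 832 FPKM in CAR wt libraries, and 805 to 1017 FPKM in PaS ko and 628 to 673 FPKM in PaS wt libraries. Most of the CAR sums was Vcam1, at 581 ± 44.3 FPKM in CAR ko and 593 ± 22.6 in CAR wt, and 303 ± 38.8 in PaS ko and 246 ± 9.12 in PaS wt libraries (SD, n = 3 each). Without Vcam1, a choice made after seeing the data, the sums were 66.6 to 76.7 FPKM in CAR ko and 186 to 219.6 FPKM in CAR wt libraries, and 525 to 669.8 FPKM in PaS ko and 373 to 436 FPKM in PaS wt libraries. C1qa averaged 1.25 ± 0.504 FPKM in CAR ko and 0.898 ± 0.330 in CAR wt, and 87.7 ± 11.6 in PaS ko and 36.3 ± 3.42 in PaS wt libraries. Erythroid genes summed to 2403 to 2717 FPKM in CAR ko and 4129 to 4731 FPKM in CAR wt libraries, and 4297 to 4626 FPKM in PaS ko and 3539 to 4430.4 FPKM in PaS wt libraries. For B-lineage genes the sums were 35.8 to 44.0 FPKM in CAR ko and 99.0 to 104 FPKM in CAR wt libraries, and 114 to 141 FPKM in PaS ko and 94.0 to 97.3 FPKM in PaS wt libraries, with Vpreb2, Rag2 and Pax5 each at 0 in at least 1 library. The eosinophil and basophil sums were 113 to 149 FPKM in CAR ko and 116 to 292 FPKM in CAR wt libraries, and 145 to 188 FPKM in PaS ko and 342 to 390.1 FPKM in PaS wt libraries, with Ms4a2 and Fcer1a at 0 in at least 1 library. Megakaryocyte sums were 28.5, 291 and 31.3 FPKM in CAR ko replicates 1, 2 and 3 and 197 to 494 FPKM in CAR wt libraries, and 49.8 to 62.0 FPKM in PaS ko and 377 to 447 FPKM in PaS wt libraries. CAR ko replicate 2 alone stood within the CAR wt range. Endothelial sums were 16.6 to 19.8 FPKM in CAR ko and 12.1 to 12.8 FPKM in CAR wt libraries, and 63.1 to 70.1 FPKM in PaS ko and 71.8 to 84.0 FPKM in PaS wt libraries, with Kdr at 0 in at least 1 CAR wt library. The part of these cell types was not tested.

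**Figure D5:**
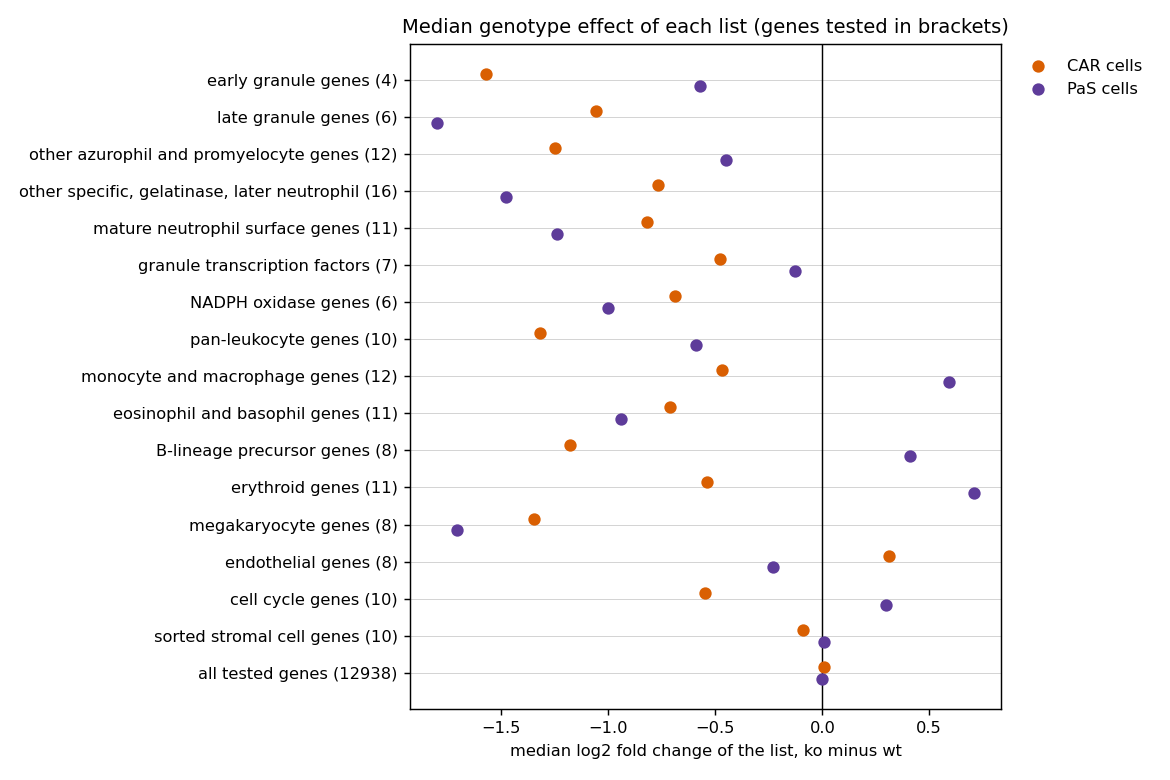
Median log2 fold change, ko minus wt, of each gene list in CAR cells (orange) and PaS cells (purple), with the number of tested genes in brackets. The early granule genes lie at -1.57 in CAR and -0.57 in PaS cells and the late genes at -1.06 and -1.80, while the median of all 12938 tested genes is at 0.01 and 0.00.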

How the data were processed

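RNA from sorted CAR and PaS cells was measured in 12 libraries, and 8 ATAC-seq samples of the 20 in the series were not analysed here. Per the labels' protocols, RNA was enriched with oligo-dT and SMART-Seq v4 libraries were prepared. Per the submitters' processing notes, TopHat2 2.0.14, Cufflinks 2.2.1 and Cuffnorm 2.2.1 are named, with the build mm10. Each deposited table gives FPKM per gene symbol, per the file headers and the tools named; the annotation, the scaling between libraries and strand use are not given in the sources used here. Libraries were on 1 scale as deposited, with median ratios to their geometric mean of 1.003 to 1.012. Read depth is unknown, so no counting interval is given. Relative depths read from low values were 0.888 to 1.12 of the mean, but in the 11 libraries set against CAR wt replicate 1 only 4.48% to 8.31% of low genes sat on whole steps, so reads were not recovered. Replicates were separate libraries: tested genes with identical values were 0.0928% to 0.518% per pair.

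Genes reaching 1 FPKM in 3 or more of 12 libraries (12938 of 24347) were tested as log2(FPKM + 1) in a 4-group model with limma 3.58.1 (eBayes with a trend; 8 residual and 6.95 prior degrees of freedom) in R 4.3.3, two-sided, with Benjamini-Hochberg adjustment over all tested genes; calls are at 0.05. Every adjusted p given is from this fit or a named alternative to it. Fold changes on this scale understate changes of low genes, while folds of means are ratios of mean FPKM. The members and the lists were chosen with earlier results of these data known. Named genes were the 10 members and up to 4 genes of each list with the smallest p in a contrast. Ebf1, Cfd, Mcpt8, Gzmb and the 8 genes most like each class were also named. Values of Lpo, Hp, Pdgfra, Ptprc, Gfi1, Ear1, Fcer1a and the other neighbouring genes were added after they were seen. Vpreb2, Rag2, Pax5 and Ms4a2 were named only for values of 0. Alternatives were pseudocounts of 0.1 and 5, no filter or one of 5 FPKM, library weights, quantile normalization, median-ratio scaling, the compared groups alone, the replicate number as a block, each library left out, and 0 values beside 100 FPKM set to missing. Sequences and gene positions are from RefSeq tables of GRCm38.p6. Plots used matplotlib 3.10.9 under Python 3.11.15.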

Additional observations from a re-analysis of the deposited data

Results flagged for a closer look

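The genotype effect (ko minus wt on the log2 scale) differed between CAR and PaS cells, by limma's test of the CAR effect minus the PaS effect, for 9 of the 10 granule genes and for the other named genes given here. Of all tested genes, 3.32% had a positive and 3.26% a negative difference. Negative values mean that the effect in CAR cells was below that in PaS cells, by a deeper fall, a smaller rise or an opposite sign. Among the early granule genes these were Ctsg (-1.28, SE 0.18, adjusted p = 0.00047), Mpo (-1.15, SE 0.16, adjusted p = 0.00036), Prtn3 (-0.76, SE 0.19, adjusted p = 0.023) and Elane (-0.68, SE 0.13, adjusted p = 0.0036). Among the late granule genes they were Ltf (1.08, SE 0.15, adjusted p = 0.00034), Lcn2 (0.99, SE 0.13, adjusted p = 0.00022), Ngp (0.77, SE 0.12, adjusted p = 0.00083), S100a9 (0.65, SE 0.08, adjusted p = 0.00022) and S100a8 (0.60, SE 0.11, adjusted p = 0.0044). The neighbouring genes were Cfd (-3.45, SE 0.28, adjusted p = 2.2e-06) and Mcpt8 (4.90, SE 0.26, adjusted p = 1.6e-08). For Mcpt8 the CAR and PaS effects had opposite signs and both were called. The same held for other genes named below, among them Prss34 (3.65 in CAR and -2.62 in PaS cells), Car1 (-0.66 and 1.07) and Birc5 (-0.65 and 0.60).

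Of 12 other azurophil and promyelocyte genes, 7 had a negative and 1 a positive difference, and the 4 with the smallest p were Cst7 (-1.59, SE 0.24, adjusted p = 0.00083), Nkg7 (-1.31, SE 0.17, adjusted p = 0.00029), Serpinb1a (-0.74, SE 0.13, adjusted p = 0.0025) and Hdc (0.86, SE 0.16, adjusted p = 0.0036), beside Ctsc (-0.55, SE 0.14, adjusted p = 0.024). Of 16 other specific, gelatinase and later neutrophil genes, 8 had a positive and none a negative difference, and the 4 with the smallest p were Chil3 (1.02, SE 0.11, adjusted p = 5.7e-05), Mmp8 (0.96, SE 0.13, adjusted p = 0.00035), Cybb (0.76, SE 0.14, adjusted p = 0.003) and Retnlg (0.53, SE 0.11, adjusted p = 0.0058). Of 11 genes listed for the surface of mature neutrophils, 3 differed. They were Cxcr2 (1.30, SE 0.34, adjusted p = 0.033), the cytokine gene Il1b (0.63, SE 0.16, adjusted p = 0.031) and Fcgr3 (-1.38, SE 0.15, adjusted p = 5.2e-05), and Fcgr3 had the opposite sign to the other 2. Beside the counts in this paragraph, 3.32% of all tested genes had a positive and 3.26% a negative difference. Of 7 transcription factors, 1 differed, which was Myb (-1.37, SE 0.24, adjusted p = 0.0025). Of 10 cell cycle genes, 8 had a negative and none a positive difference, and the 4 with the smallest p were Birc5 (-1.25, SE 0.16, adjusted p = 0.00016), Mki67 (-1.20, SE 0.18, adjusted p = 0.00082), Top2a (-1.14, SE 0.19, adjusted p = 0.0018) and Rrm2 (-1.12, SE 0.15, adjusted p = 0.0003).

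The remaining named genes with a difference were Car1 (-1.74, SE 0.10, adjusted p = 8.5e-08), Igll1 (-2.59, SE 0.25, adjusted p = 1.6e-05), Cd79b (-1.67, SE 0.19, adjusted p = 8.4e-05), C1qa (-1.01, SE 0.24, adjusted p = 0.017) and Ly6c2 (-0.53, SE 0.15, adjusted p = 0.047), all negative. Positive ones were Il1r2 (1.15, SE 0.13, adjusted p = 8.3e-05), Cd177 (0.96, SE 0.25, adjusted p = 0.033), Lilrb4a (0.80, SE 0.20, adjusted p = 0.027), Slfn4 (1.00, SE 0.27, adjusted p = 0.035), Fcer1a (2.06, SE 0.50, adjusted p = 0.021), and the sort genes Pdgfra (0.52, SE 0.10, adjusted p = 0.0035) and Ly6a (1.10, SE 0.22, adjusted p = 0.0065). Of the eosinophil and basophil genes, Prss34 was also positive (6.28, SE 0.38, adjusted p = 9e-08) and Prg2 negative (-2.10, SE 0.38, adjusted p = 0.0032).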

How the results depend on the processing

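Of 1090 alternative values of the members' fold changes, 1078 kept their direction and their side of the threshold, 10 fell below it, 2 passed it and none reversed. Over the 5 comparisons, the weaker values concern Mpo, Prtn3 and S100a8 and the stronger ones Camp, all given beside the results. Without a filter, the genes called lower in CAR ko were 481 (743 with it), and the difference of effects gave 280 genes called higher (429) and 223 lower (422). With Ltf, Camp, Ngp and Lcn2 as the late genes, the early-minus-late value was -0.87 in CAR ko, -0.35 in CAR wt, -2.22 in PaS ko and -3.50 in PaS wt libraries, in the same order of groups. In PaS wt libraries it was -4.68 with a pseudocount of 0.1, -4.55 with one of 5 and -4.64 under quantile normalization. Leaving out 1 library gave -2.16 to -2.03 in CAR ko, -1.75 to -1.48 in CAR wt, -3.51 to -3.34 in PaS ko and -4.66 to -4.65 in PaS wt, and 5 to 6 members higher and 3 to 4 lower in the difference of effects. Fitting only the compared groups gives no value for that difference. Same-numbered libraries deviated together with correlations of -0.0411 to 0.178, above 0.1 in 3 of 18 pairs. These low values cannot exclude that same-numbered libraries share animals, which the labels do not say. The main fit treats all libraries as independent. With the replicate number as a block, 10 members were lower in CAR ko, 9 in PaS ko, and the difference of effects gave 5 higher and 4 lower, with 754 genes lower in CAR ko. With 3 libraries a group and unknown read depth, counting error cannot be separated from other spread.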
